A study of Mus musculus with 12 samples.

Results

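The Polycomb repressive complex 2 (PRC2) subunits described here are 10 mouse genes: the alternative catalytic subunits Ezh2 and Ezh1, the core subunits Eed, Suz12 and Rbbp7, and the accessory subunits Jarid2, Aebp2, Mtf2, Phf1 and Phf19. Each was read from the array's transcript cluster annotated to that symbol alone; every gene had 1 such cluster, so 10 of 10 were measured, out of 30142 genes with a cluster of their own. Signals are log2 values, so a difference of 1 is a doubling. The cells were HoxB8-ER cells from C57BL/6 mice, which are bone marrow progenitors immortalised by HOXB8 fused to the ligand-binding part of the estrogen receptor; all 12 samples carry this transgene, and estradiol at 0.5 µM holds them as dividing progenitors. The 6 groups of 2 arrays were Ezh2-/- cells differentiated into neutrophils over 6 days without estradiol, wild-type (WT) neutrophils made the same way, undifferentiated Ezh2-/- cells, undifferentiated WT cells, WT neutrophils given the EZH2 inhibitor GSK343, and WT neutrophils given vehicle. GSK343 was given for 9 days, at 0.5 µM per the sample labels or 1 µM per the series text, so the dose is not settled. Bone marrow came from Ezh2 null mice and littermate controls, but the number of lines, the deleted exons and the independence of replicate cultures are not stated. Genotype and cell line therefore cannot be told apart, and every p-value refers to variation among these arrays alone, some of which may be technical.

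PRC2 adds methyl groups to a lysine of histone H3 (H3K27), a mark of silenced genes. EZH2 and EZH1 carry the methyltransferase activity, and only 1 of them sits in a given complex; EED binds the finished mark and SUZ12 holds the core together, while RBBP7 is a histone-binding protein that also serves other chromatin complexes. The Polycomb-like proteins PHF1, MTF2 and PHF19 define one form of the complex and JARID2 with AEBP2 another. In many tissues EZH2 is the form of dividing cells and EZH1 that of resting cells.

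The values fall into the 8 genotype arrays and the 4 drug arrays, whose medians over clusters lay at 4.54 to 4.65 and 3.88 to 3.96, so these ranges look separately normalized and no value is compared between them. For each array, a background limit was taken as the 95th percentile over its 23 antigenomic controls, and it ran from 4.83 to 5.79. All 10 members lay above it on every array, except Phf19 on vehicle array 1 (5.08 against a limit of 5.15). The 2 arrays of a group differed by a median of 0.17 over the 60 combinations of member and group, and at most by 0.71, for Phf1 in WT neutrophils. All 13 neutrophil markers with a cluster of their own rose on differentiation in both genotypes. Progenitor markers fell in 9 of 10 cases in Ezh2-/- cells and 10 of 10 in WT cells. Markers of other lineages rose as well. In Ezh2-/- cells 10 of 10 erythroid markers, 8 of 10 mast cell and basophil markers (1 fell) and 7 of 9 monocyte and macrophage markers rose. In WT cells 7 of 9 monocyte and macrophage markers rose, while 1 erythroid and 4 mast cell and basophil markers fell and 0 rose. In each genotype 2 of 5 eosinophil markers rose, while 1 of 4 B cell markers and 1 of 5 dendritic cell markers fell. None of 6 T and NK cell markers was above the limit on both arrays of any group.

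The promoters of the members are shown first, a choice made with their changes on differentiation known. E2F factors are known regulators of genes used by dividing cells. The windows are from RefSeq (GRCm38.p6), run 5′ to 3′ on the gene's strand from 250 bases before to 50 after the start, and hold all 10 members in 14 windows. Capitals mark letters that match an E2F motif, searched on both strands as the letters TTCCCGC and also TTCGCGC, along with TTGCCGC and also TTGGCGC. Ezh2 (chr6:47594981-47595280, minus strand), the member with the largest fall in WT cells, has a match 4 bases after the start.
Ezh2: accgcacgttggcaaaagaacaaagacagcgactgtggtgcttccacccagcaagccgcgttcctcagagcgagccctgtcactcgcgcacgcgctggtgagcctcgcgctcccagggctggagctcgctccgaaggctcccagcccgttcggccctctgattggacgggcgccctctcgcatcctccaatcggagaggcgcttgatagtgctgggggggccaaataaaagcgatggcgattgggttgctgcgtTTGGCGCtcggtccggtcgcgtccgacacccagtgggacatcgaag
Suz12 (chr11:79992856-79993155, plus strand) has a match 218 bases before its start.
Suz12: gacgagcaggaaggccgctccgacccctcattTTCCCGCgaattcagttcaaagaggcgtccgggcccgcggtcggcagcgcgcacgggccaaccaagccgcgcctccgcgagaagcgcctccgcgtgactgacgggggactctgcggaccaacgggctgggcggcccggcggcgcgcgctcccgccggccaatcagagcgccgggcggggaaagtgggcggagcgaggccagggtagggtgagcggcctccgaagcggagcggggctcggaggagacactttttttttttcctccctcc
Phf19 (chr2:34913927-34914226, minus strand) has a match on the opposite strand, 208 bases before its start.
Phf19: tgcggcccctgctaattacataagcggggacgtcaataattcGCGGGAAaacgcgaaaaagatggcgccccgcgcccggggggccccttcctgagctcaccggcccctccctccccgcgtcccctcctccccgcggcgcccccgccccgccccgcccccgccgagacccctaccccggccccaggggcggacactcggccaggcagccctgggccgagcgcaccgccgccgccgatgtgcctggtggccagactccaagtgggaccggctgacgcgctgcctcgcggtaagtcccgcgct
Of the 3 Aebp2 windows, the one at chr6:140624659-140624958 (plus strand) has a match, 61 bases before the start.
Aebp2: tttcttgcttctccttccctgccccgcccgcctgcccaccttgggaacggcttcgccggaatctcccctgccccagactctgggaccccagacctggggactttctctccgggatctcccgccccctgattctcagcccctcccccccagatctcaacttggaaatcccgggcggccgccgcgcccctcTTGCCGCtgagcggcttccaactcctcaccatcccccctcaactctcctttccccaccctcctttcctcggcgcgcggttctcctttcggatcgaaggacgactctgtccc
Ezh1 (chr11:101226414-101226713, minus strand) and Phf1 (chr17:26932877-26933176, plus strand) are shown as the members with the largest rises, and hold no match.
Ezh1: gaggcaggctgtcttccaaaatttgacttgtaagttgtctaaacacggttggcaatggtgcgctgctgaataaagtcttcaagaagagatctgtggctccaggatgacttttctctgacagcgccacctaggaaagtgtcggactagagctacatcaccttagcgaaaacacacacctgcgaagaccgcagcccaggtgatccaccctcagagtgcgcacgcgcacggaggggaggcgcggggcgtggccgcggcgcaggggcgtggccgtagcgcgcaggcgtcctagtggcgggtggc
Phf1: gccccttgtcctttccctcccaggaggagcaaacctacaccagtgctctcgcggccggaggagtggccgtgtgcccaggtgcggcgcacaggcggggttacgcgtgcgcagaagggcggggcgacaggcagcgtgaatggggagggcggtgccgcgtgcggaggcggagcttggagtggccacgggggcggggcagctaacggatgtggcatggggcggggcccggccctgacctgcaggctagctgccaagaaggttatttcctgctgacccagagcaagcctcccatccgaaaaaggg
In all, 4 of the 14 member windows held an E2F match, in Ezh2, Suz12, Aebp2 and Phf19, against 9.57% of all 32851 windows. Mtf2 and Rbbp7, which also fell in WT cells, held none, nor did Eed, which rose, or Jarid2. GC content differs between these sets: member windows held 45.7% to 75.7% G and C against a median of 52.7% over all windows, and among the windows with at least 60% GC, 4 of 9 member windows held a match against 19.9% of 9690. The motif CCAAT was found in 8 of the 14 member windows (37.4% of all windows). The Ezh2 window and an Mtf2 window each held 3 copies, and the window of Eed, which rose, held 1. The windows of Ezh1 and Phf1, which rose, and of Phf19, which fell, held none. The motif TTTGAA, the core of the cell cycle homology region, was found in 4 of the 14 (17.9% of all), the PU.1 core GAGGAA in 7 (28.3%), and the C/EBP form TTGCNNAA in 0 (10.8%). Shares among GC-rich windows were computed for the E2F motif alone. A match describes letters in a window and does not show that a factor binds there. Whether E2F factors take part in the changes on differentiation was not tested.

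**Figure D1:**
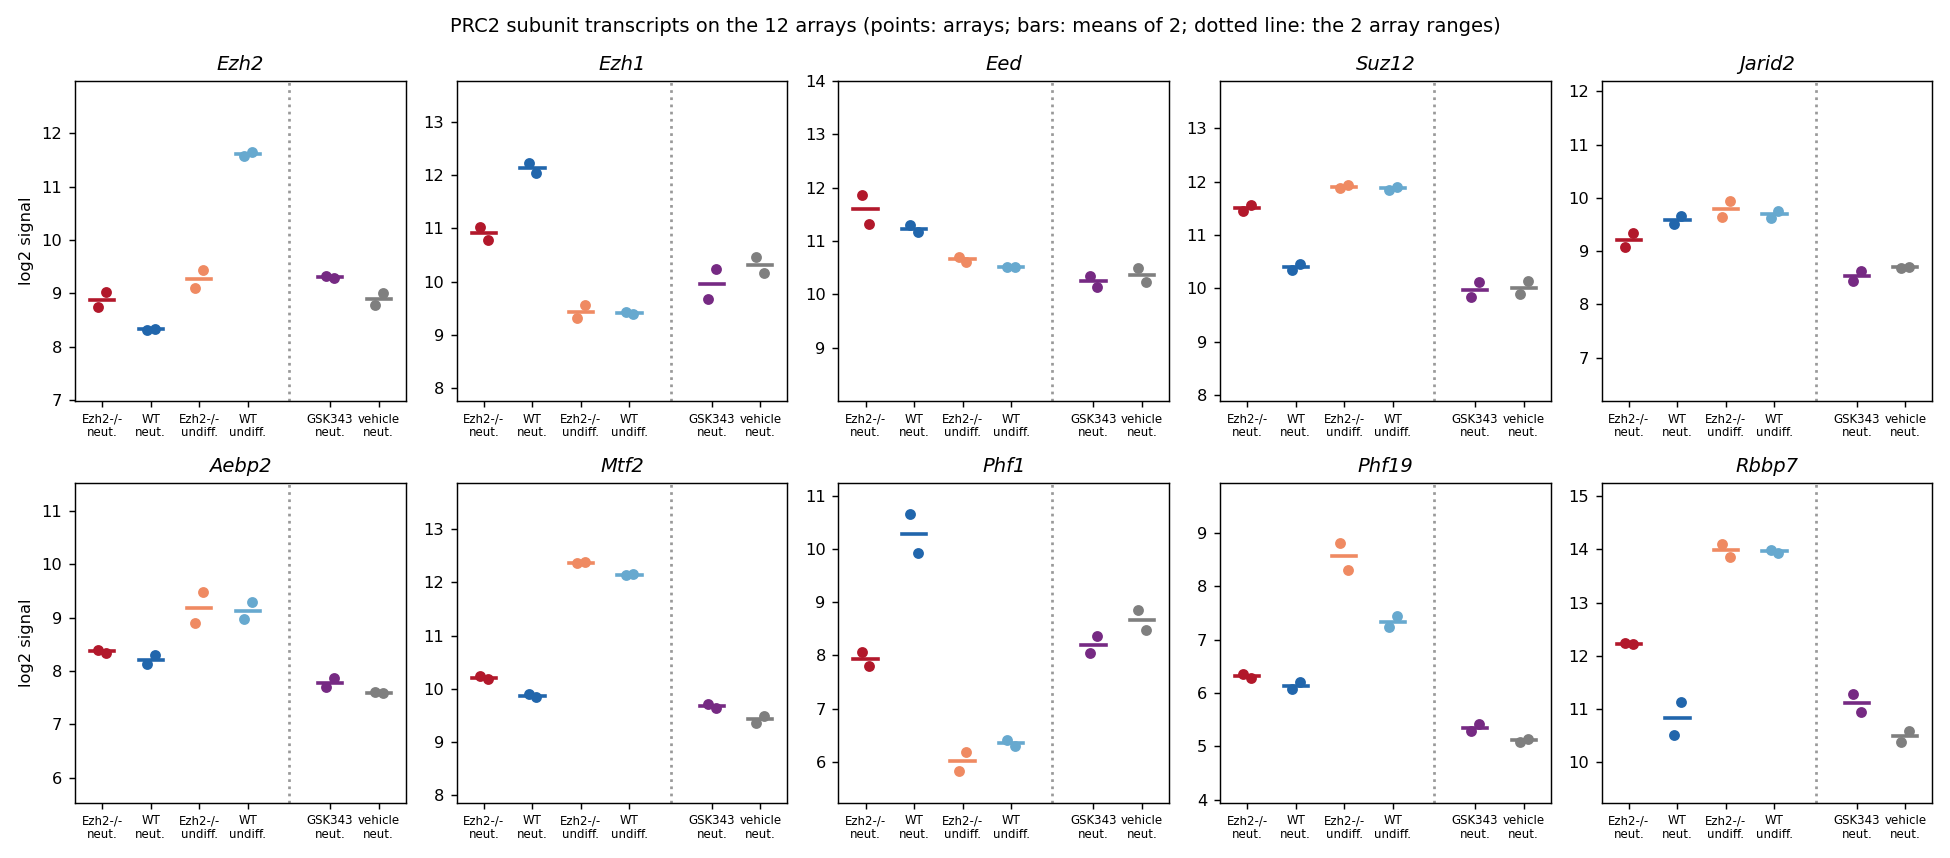
Log2 signal (vertical axes, all spanning 6 units) of each PRC2 subunit in the 6 groups (horizontal axes; neut., neutrophil-derived; undiff., undifferentiated). Points are arrays and bars are means of 2; the dotted line separates the genotype arrays from the drug arrays, which are on different scales. Ezh2 stands highest in undifferentiated WT cells (11.57 and 11.65), whereas Ezh1 and Phf1 stand highest in WT neutrophils among the genotype arrays.

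The subunits changed most with differentiation. In limma, fitted over all 65956 transcript clusters with Benjamini-Hochberg adjustment and called at an adjusted p under 0.05, 8 of 10 members changed on differentiation of Ezh2-/- cells (3 rose, 5 fell) and 9 of 10 on differentiation of WT cells (3 rose, 6 fell). Over all clusters, 22.4% were called on differentiation of Ezh2-/- cells (11.7% higher, 10.7% lower) and 25.3% on differentiation of WT cells (13% higher, 12.2% lower). Among the 14888 genes above background on at least 2 arrays, which the members resemble more in brightness, 50.2% and 59.2% were called in those comparisons. The median member difference was −0.49 in Ezh2-/- cells and −1.06 in WT cells, against −0.28 and −0.23 over those genes. Genotype calls were fewer. In neutrophils 4 of 10 members differed between Ezh2-/- and WT (2 higher, 2 lower), where 11.8% of all clusters (6.75% higher, 5.06% lower) and 31.4% of genes above background did. In undifferentiated cells 2 of 10 differed (1 higher, 1 lower), against 2.99% of all clusters (1.65% higher, 1.34% lower) and 7.99% of genes above background. The 1 lower was Ezh2, the gene the genotype label names, so that call bears on the label. The 1 higher was Phf19. The genotype difference itself differed between stages for 6 of 10 members (3 more positive in neutrophils, 3 more negative), against 4.41% of clusters (2.77% and 1.65%) and 13% of genes above background. Ezh2 is 1 of these 6, and its call bears on the label too.

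**Figure D2:**
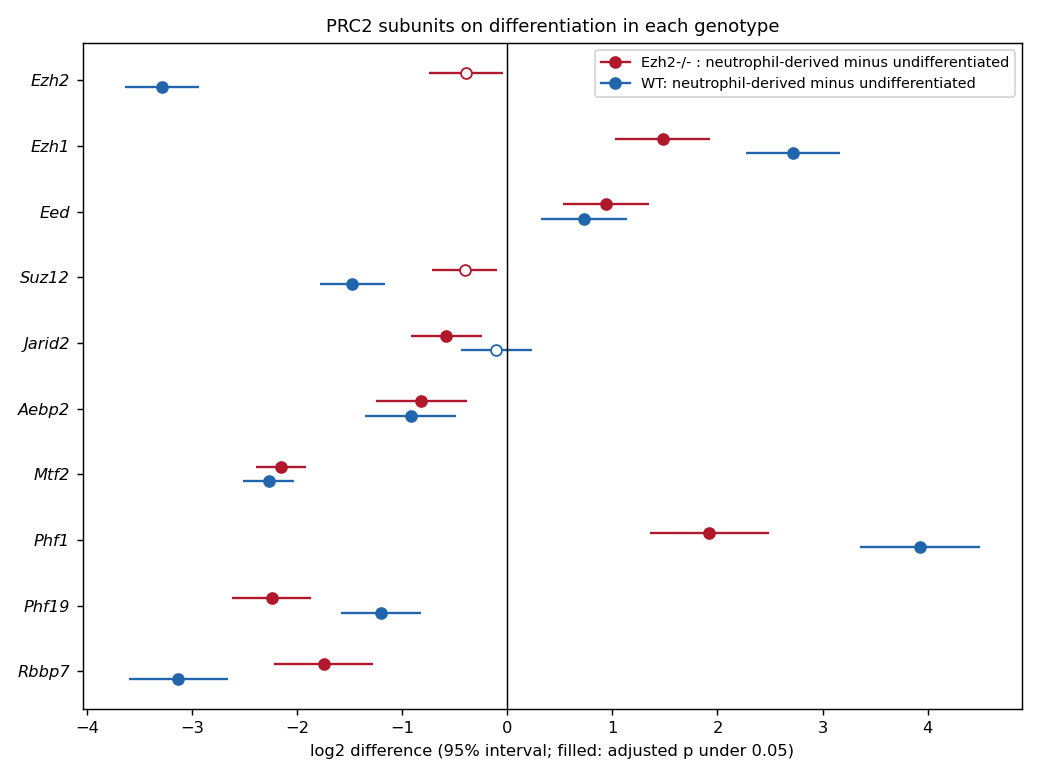
Log2 difference on differentiation (horizontal axis, neutrophil-derived minus undifferentiated, with 95% intervals from limma) for each PRC2 subunit in Ezh2-/- cells (red) and in WT cells (blue). Filled points passed an adjusted p of 0.05. Ezh1, Eed and Phf1 lie right of 0 in both genotypes, and Ezh2 lies at −3.28 in WT cells and −0.39 in Ezh2-/- cells.

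Ezh2, the main methyltransferase of dividing cells, was read first, since it bears on the genotype labels. Its signal was 9.10 and 9.44 in undifferentiated Ezh2-/- cells, against 11.57 and 11.65 in undifferentiated WT cells. The groups did not overlap, and the difference passed the test (5.06-fold lower, log2 −2.34, SE 0.155, adjusted p = 5.5e-05). The signal left in undifferentiated Ezh2-/- cells still lay far above those arrays' limits of 5.79 and 5.33. In neutrophils, Ezh2 was 8.74 and 9.02 with the Ezh2-/- label, against 8.31 and 8.34 in WT. These groups did not overlap either, but in this comparison that held for all 10 members, and the share over all clusters was not computed. Here the label that should be lower was higher by 0.55 (SE 0.155, adjusted p = 0.0501). That p lay just above the threshold and ranged from 0.0276 to 0.289 over 21 alternative settings, 5 of which passed. A single value stands for the gene as a whole and the deleted exons are not stated, so the signal does not settle the genotype of these neutrophils. They are called neutrophils labelled Ezh2-/- from here on.

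On differentiation Ezh2 fell 9.75-fold in WT cells (log2 −3.28, SE 0.155, adjusted p = 1.23e-06). In Ezh2-/- cells it was lower by 0.39 in neutrophils, which did not pass the test (95% interval −0.74 to −0.04, adjusted p = 0.113). Ordered by level, undifferentiated WT cells stood highest, followed by undifferentiated Ezh2-/- cells, neutrophils labelled Ezh2-/- and WT neutrophils; the last 3 groups did not overlap, but neither step between them passed the test. The genotype difference was more positive in neutrophils than in undifferentiated cells by 2.89 (SE 0.219, adjusted p = 0.000186), and this was the only one of the 6 such calls among the members that held in every alternative (adjusted p at most 0.00352). In bulk RNA, fewer cells of a type and less RNA per cell cannot be told apart, here or in the results that follow.

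Ezh1, the second methyltransferase, ran the other way on differentiation. It was 11.03 and 10.79 in neutrophils labelled Ezh2-/- and 12.22 and 12.04 in WT neutrophils, against 9.31 and 9.55 in undifferentiated Ezh2-/- cells and 9.42 and 9.39 in undifferentiated WT cells. All neutrophil arrays lay above all undifferentiated arrays. Ezh1 rose 2.78-fold in Ezh2-/- cells (log2 1.48, SE 0.199, adjusted p = 0.000693) and 6.58-fold in WT cells (log2 2.72, SE 0.199, adjusted p = 1.25e-05). In neutrophils it was 2.33-fold lower with the Ezh2-/- label than in WT (log2 −1.22, adjusted p = 0.00401). In undifferentiated cells, where Ezh2 was lower in Ezh2-/- cells, the Ezh1 groups overlapped and the difference was 0.023, with a 95% interval of −0.43 to 0.47 (adjusted p = 0.987). The change of Ezh1 relative to Ezh2 was also taken within the same arrays, where a shift common to a whole array cancels but other scaling effects need not. It was 1.87 log2 units on differentiation of Ezh2-/- cells and 6.00 on differentiation of WT cells. By genotype it was 2.36 in undifferentiated cells and −1.77 in neutrophils.

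Among the core subunits, Suz12 and Rbbp7 fell while Eed rose. Suz12, the scaffold, was 11.44 and 11.56 in neutrophils labelled Ezh2-/- and 10.35 and 10.45 in WT neutrophils, against 11.87 and 11.94 in undifferentiated Ezh2-/- cells and 11.85 and 11.90 in undifferentiated WT cells. Only WT neutrophils stood far from the other 3 groups. Suz12 fell 2.78-fold on differentiation of WT cells (log2 −1.48, SE 0.136, adjusted p = 4.52e-05). In Ezh2-/- cells the difference was −0.41 (adjusted p = 0.0633; under 0.05 in 4 of 21 alternatives), and the neutrophil difference between labels was 1.10, a level 2.15-fold higher with the Ezh2-/- label (SE 0.136, adjusted p = 0.000884). Rbbp7, the histone-binding subunit, was 12.24 and 12.22 in neutrophils labelled Ezh2-/- and 10.52 and 11.14 in WT neutrophils, against 14.11 and 13.85 in undifferentiated Ezh2-/- cells and 13.98 and 13.94 in undifferentiated WT cells. The neutrophil groups did not overlap each other or the undifferentiated ones, which overlapped each other. Rbbp7 fell 3.36-fold on differentiation of Ezh2-/- cells (log2 −1.75, adjusted p = 0.000327) and 8.75-fold on differentiation of WT cells (log2 −3.13, adjusted p = 7.58e-06). In neutrophils it was 2.64-fold higher with the Ezh2-/- label (log2 1.40, SE 0.208, adjusted p = 0.00234).

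Eed, which binds trimethylated H3K27, was the core subunit that rose. It was 11.86 and 11.33 in neutrophils labelled Ezh2-/- and 11.30 and 11.17 in WT neutrophils, against 10.70 and 10.61 in undifferentiated Ezh2-/- cells and 10.51 on both arrays of undifferentiated WT cells. All neutrophil arrays were higher than all undifferentiated ones. The rise was 1.91-fold in Ezh2-/- cells (log2 0.94, SE 0.181, adjusted p = 0.00511) and 1.65-fold in WT cells (log2 0.73, SE 0.181, adjusted p = 0.0157). The call in WT cells was lost without undifferentiated WT array 1 (adjusted p = 0.0719), undifferentiated WT array 2 (adjusted p = 0.0724) or WT neutrophil array 1 (adjusted p = 0.0885), and that in Ezh2-/- cells when only the 4 compared arrays were fitted (adjusted p = 0.0746). Between genotypes Eed differed by 0.36 in neutrophils and 0.15 in undifferentiated cells, and neither passed (adjusted p = 0.296 and adjusted p = 0.876).

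The 3 Polycomb-like genes, whose proteins bind CpG-rich DNA and H3K36 methylation and recruit the complex, did not move together. Phf1 was 8.07 and 7.81 in neutrophils labelled Ezh2-/- and 10.64 and 9.93 in WT neutrophils, against 5.83 and 6.20 in undifferentiated Ezh2-/- cells and 6.41 and 6.31 in undifferentiated WT cells. The undifferentiated values sat close to background, and no neutrophil array overlapped them. The rises given next may therefore be understated. Phf1 rose 3.79-fold on differentiation of Ezh2-/- cells (log2 1.92, SE 0.251, adjusted p = 0.000578) and 15.2-fold on differentiation of WT cells (log2 3.93, SE 0.251, adjusted p = 6.17e-06), the largest change among the members in WT cells. With the Ezh2-/- label it was 5.10-fold lower in neutrophils (log2 −2.35, SE 0.251, adjusted p = 0.000407).

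Mtf2, the Polycomb-like gene best known from embryonic stem cells, had the tightest replicates of the 3. Its signal was 10.24 and 10.19 in neutrophils labelled Ezh2-/- and 9.90 and 9.85 in WT neutrophils, against 12.35 and 12.37 in undifferentiated Ezh2-/- cells and 12.14 and 12.15 in undifferentiated WT cells. It fell 4.44-fold on differentiation of Ezh2-/- cells (log2 −2.15, SE 0.106, adjusted p = 2.5e-06) and 4.83-fold on differentiation of WT cells (log2 −2.27, SE 0.106, adjusted p = 1.15e-06). The genotype differences did not pass at either stage (0.34 in neutrophils, adjusted p = 0.0746; 0.22 in undifferentiated cells, adjusted p = 0.46), and the test of their difference between stages gave 0.12, with a 95% interval of −0.22 to 0.46 (adjusted p = 0.834).

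Phf19 was 6.36 and 6.28 in neutrophils labelled Ezh2-/- and 6.07 and 6.20 in WT neutrophils, against 8.81 and 8.31 in undifferentiated Ezh2-/- cells and 7.24 and 7.44 in undifferentiated WT cells. It was the 1 member called higher in undifferentiated Ezh2-/- cells, 2.33-fold above WT (log2 1.22, SE 0.167, adjusted p = 0.00408); fitted on only those 4 arrays, the adjusted p was 0.183. On differentiation Phf19 fell 4.73-fold in Ezh2-/- cells (log2 −2.24, adjusted p = 2.14e-05) and 2.30-fold in WT cells (log2 −1.20, adjusted p = 0.000541). WT neutrophils lay above the antigenomic limit but below the middle value of 5222 negative controls, and with that value as the limit, chosen after the data were seen, the fall in WT cells is at least 1.81-fold.

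The subunits of the JARID2 form, Jarid2 and Aebp2, had no call between genotypes at either stage. Jarid2, whose protein helps the complex reach chromatin, was 9.07 and 9.34 in neutrophils labelled Ezh2-/- and 9.52 and 9.65 in WT neutrophils, against 9.63 and 9.94 in undifferentiated Ezh2-/- cells and 9.62 and 9.76 in undifferentiated WT cells. It fell 1.49-fold on differentiation of Ezh2-/- cells (log2 −0.58, SE 0.151, adjusted p = 0.022). In WT cells the difference was −0.10, with a 95% interval of −0.44 to 0.24. The call in Ezh2-/- cells was lost without undifferentiated Ezh2-/- array 2 (adjusted p = 0.107), without labelled Ezh2-/- neutrophil array 1 (adjusted p = 0.148) and in 3 other settings (adjusted p = 0.0544, 0.0609 and 0.148). Aebp2, a zinc-finger cofactor of the complex, was 8.40 and 8.34 in neutrophils labelled Ezh2-/- and 8.13 and 8.30 in WT neutrophils, against 8.90 and 9.48 in undifferentiated Ezh2-/- cells and 8.98 and 9.29 in undifferentiated WT cells. All neutrophil arrays were lower than all undifferentiated ones. The fall was 1.76-fold in Ezh2-/- cells (log2 −0.82, SE 0.191, adjusted p = 0.0135) and 1.89-fold in WT cells (log2 −0.92, SE 0.191, adjusted p = 0.00603). Without undifferentiated WT array 2 the call in WT cells was lost (adjusted p = 0.0555). The call in Ezh2-/- cells was lost without undifferentiated Ezh2-/- array 2 (adjusted p = 0.0545), labelled Ezh2-/- neutrophil array 1 (adjusted p = 0.0548) or array 2 (adjusted p = 0.0723), and with only the 4 compared arrays fitted (adjusted p = 0.113).

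**Figure D3:**
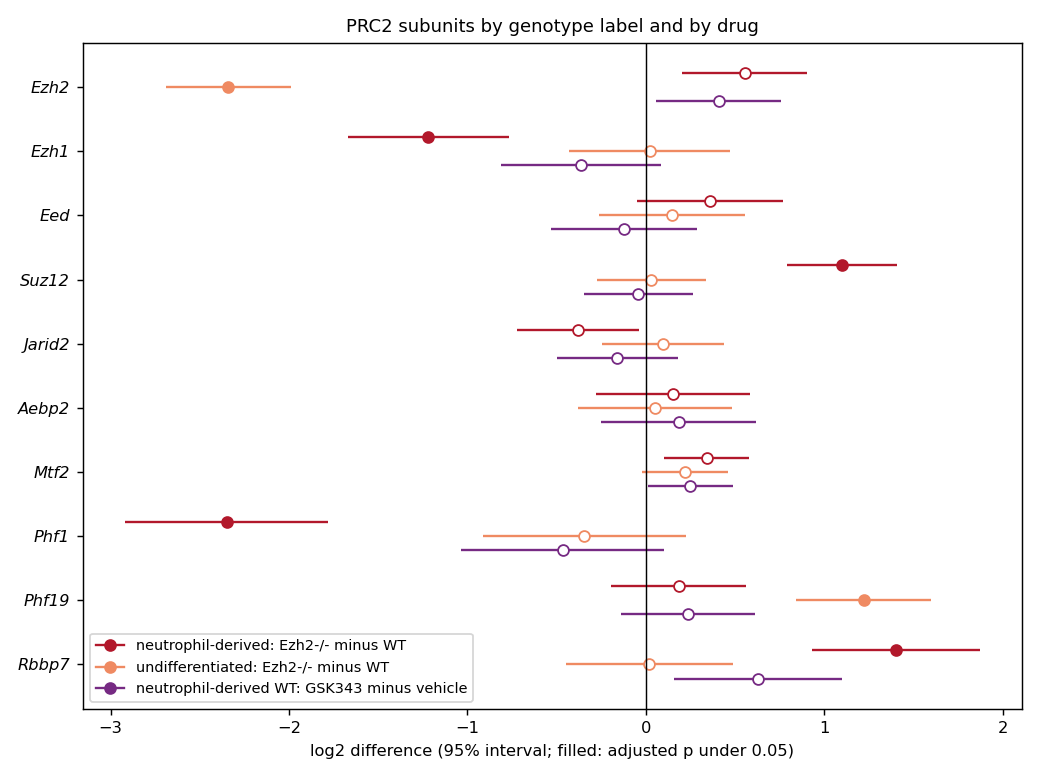
Log2 difference of each PRC2 subunit (horizontal axis, with 95% intervals from limma) by genotype label in neutrophils (red) and in undifferentiated cells (orange), Ezh2-/- minus WT, and by drug in WT neutrophils (purple), GSK343 minus vehicle. Filled points passed an adjusted p of 0.05: Phf1, Ezh1, Suz12 and Rbbp7 in neutrophils, Ezh2 and Phf19 in undifferentiated cells, and no member with the drug.

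Between stages, the genotype difference changed for Ezh2 as given above, and by 1.07 for Suz12 (adjusted p = 0.0155), 1.38 for Rbbp7 (adjusted p = 0.0318), −1.24 for Ezh1 (adjusted p = 0.0423), −2.004 for Phf1 (adjusted p = 0.0144) and −1.04 for Phf19 (adjusted p = 0.0427). The same values state how differentiation differed between genotypes. In Ezh2-/- cells the change on differentiation was 11.9% of that in WT cells on the log2 scale for Ezh2, 27.5% for Suz12, 49.0% for Phf1, 54.3% for Ezh1 and 55.8% for Rbbp7. No such share is given for Phf19, since its fall in WT cells is only a lower bound under the negative-control limit, and its interaction value carries the same limit. Phf1 sat close to background in undifferentiated cells of both genotypes, so its share and interaction value are not exact. The 4 members with no called difference between genotypes were Mtf2 (94.7%), Aebp2 (89.0%), Eed (129%) and Jarid2 (563%, over a WT change of −0.10 that did not pass). These calls depended on the arrays. Of the 6, 1 remained called without undifferentiated WT array 1, undifferentiated WT array 2 or labelled Ezh2-/- neutrophil array 2, 2 without WT neutrophil array 1, and 3 without labelled Ezh2-/- neutrophil array 1, vehicle array 1 or vehicle array 2.

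GSK343 binds the catalytic site of EZH2 and need not lower its transcript. No member was called between GSK343 and vehicle in limma (0 of 10; 3 at an unadjusted p under 0.05), and 1 of all clusters was (0.00152%; 0.00152% higher, 0% lower; 0.00672% of genes above background). Ezh2 was 9.33 and 9.28 with GSK343, against 8.78 and 9.02 with vehicle, a difference of 0.41 with a 95% interval of 0.06 to 0.76 (adjusted p = 0.736). Rbbp7 was 11.28 and 10.95 with GSK343, against 10.39 and 10.59 with vehicle, a difference of 0.63 with an interval of 0.16 to 1.10 (adjusted p = 0.646). Mtf2 differed by 0.25, with an interval of 0.01 to 0.49 (adjusted p = 0.807). Those were the 3 with an unadjusted p under 0.05. Ezh1 was 9.68 and 10.23 with GSK343, against 10.47 and 10.17 with vehicle, and these groups overlapped (difference −0.36, interval −0.81 to 0.09). Phf1 was 8.04 and 8.37 against 8.86 and 8.48 with vehicle, which did not overlap (difference −0.47, interval −1.04 to 0.10). For 7 of 10 members the drug and vehicle arrays did not overlap, against 38.1% of all clusters. The remaining differences lay between −0.16 for Jarid2 and 0.24 for Phf19. For Phf19 both vehicle arrays (5.08 and 5.15) lay below the middle value of their negative controls (5.53 and 5.28). Its difference and its place among the 7 are therefore not exact. With 2 arrays a group these intervals are wide, reaching 1.10 for Rbbp7 and −1.04 for Phf1.

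Values of cell cycle genes are given beside the results above. Among genes above background, 31.4% were called by genotype label in neutrophils. On differentiation 50.2% were called in Ezh2-/- cells and 59.2% in WT cells. Of 20 proliferation genes with a cluster of their own, such as the replication gene Mcm2 and the mitotic gene Top2a, 18 were higher in neutrophils labelled Ezh2-/- than in WT neutrophils (median 2.74), with list medians of 11.8 and 11.9 on the arrays labelled Ezh2-/- and 8.51 and 9.19 on the WT arrays. On differentiation of Ezh2-/- cells 6 fell and 2 rose (median −0.43), and on differentiation of WT cells 19 fell (median −3.37). None was called by genotype in undifferentiated cells (median −0.23; list medians 13.0 and 11.4 in Ezh2-/- against 12.7 and 12.2 in WT). With GSK343 none was called, and all 20 differences were above 0, between 0.28 and 1.13. The median over genes above background was 0.072 in that comparison. The 20 genes were read on the same arrays, so they are not 20 separate observations. Of 13 E2F and RB family genes, 6 were higher in neutrophils labelled Ezh2-/- (median 0.93) and none lower, led by the E2F partner gene Tfdp2 (2.80, adjusted p = 0.000286). On differentiation 6 of the 13 fell and 2 rose in Ezh2-/- cells, and 9 fell and 2 rose in WT cells. The 2 that rose in both were E2f2 (4.25 in Ezh2-/- and 3.87 in WT cells) and the retinoblastoma gene Rb1 (3.07 and 1.73). Rb1 was read from the brightest of its 3 clusters alone.

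Cell type markers also separated the neutrophil groups. Between those groups 31.4% of genes above background were called, and between the undifferentiated groups 7.99% were. All 10 mast cell and basophil markers and all 10 erythroid markers with a cluster of their own were higher in neutrophils labelled Ezh2-/- than in WT neutrophils, although the tryptase gene Tpsab1 lay under the limit on all 4 arrays. The mast cell list had median levels of 10.8 and 11.2 on the arrays labelled Ezh2-/-, against 4.82 and 4.77 on the WT arrays, where 7 of the 10 markers, the tryptase gene Tpsb2 and the IgE receptor gene Fcer1a among them, lay under the limit on both arrays. The erythroid list had medians of 11.1 and 10.6 on the arrays labelled Ezh2-/-, against 4.74 and 4.71 on the WT arrays, where 9 of 10, Klf1 and Gata1 among them, lay under the limit. In undifferentiated cells 1 of 10 mast cell markers was higher and 1 lower in Ezh2-/- than in WT, and 1 of 10 erythroid markers was higher. In the same comparison 2 of 13 neutrophil markers were higher and 2 lower (median 1.10, from −6.43 to 3.66), 2 of 10 progenitor markers were lower (lowest −4.004) and 2 of 9 monocyte and macrophage markers were lower (lowest −6.71). Monocyte and macrophage markers ran the other way in neutrophils, with 4 of 9 lower with the Ezh2-/- label and list medians of 7.59 and 11.0 on those arrays, against 10.6 and 12.5 on the WT arrays. Of the neutrophil markers, 5 of 13 were lower with the Ezh2-/- label and none higher (median −0.85, lowest −4.74), and of the progenitor markers 4 of 10 were higher and none lower (median 0.68, highest 5.35). With the Ezh2-/- label 2 of 5 eosinophil markers were higher in neutrophils, and 1 of 4 B cell markers was higher at each stage. No dendritic cell or T and NK cell marker was called by genotype. The part of these cell types, and of proliferation, in the PRC2 differences was not tested.

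**Figure D4:**
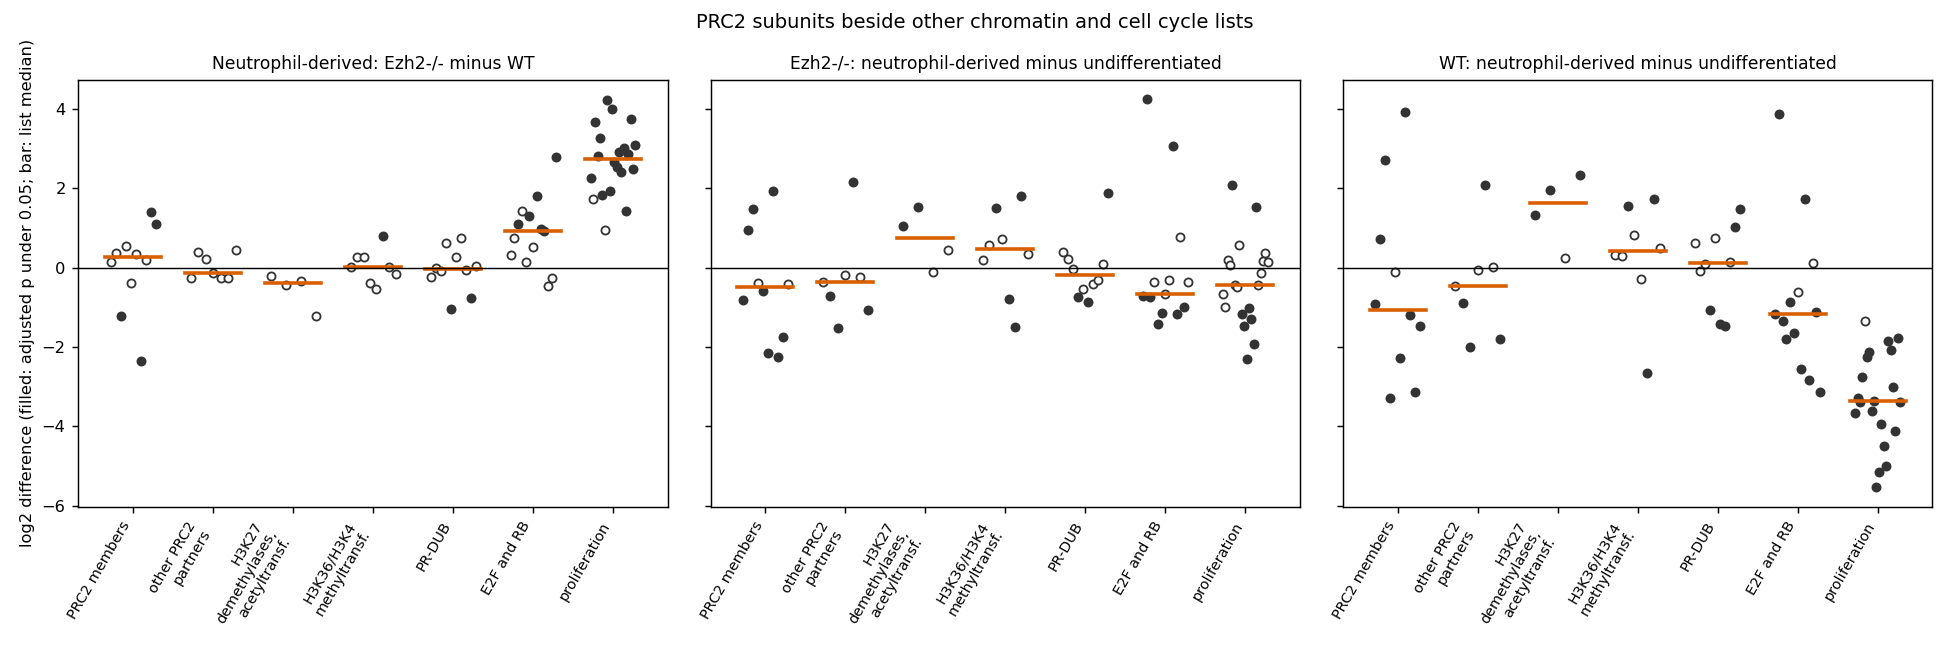
Log2 differences (vertical axis) of the genes of 7 lists (horizontal axes) in neutrophils by genotype label (left) and on differentiation of Ezh2-/- cells (middle) and of WT cells (right). Points are genes, filled where the adjusted p was under 0.05, and bars are list medians. Proliferation genes sit above 0 at left (median 2.74) and below it at right (median −3.37), while PRC2 subunits spread to both sides.

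Other genes of the pathway were counted from whole lists. Among all genes above background, 50.2% were called on differentiation of Ezh2-/- cells and 59.2% on that of WT cells. Of 7 further PRC2 partners, 3 fell and 1 rose on differentiation in each genotype. Rbbp4, the close relative of Rbbp7, fell in both genotypes (log2 −1.07 in Ezh2-/- cells and −1.79 in WT cells). Epop, an elongin-binding partner of the MTF2 form, also fell (log2 −1.52 and −2.003), but lay above the limit on only 1 of 2 arrays of each neutrophil group, so these falls may be understated. Lcor, whose locus encodes the PRC2-binding PALI1 protein, rose by 2.16 in Ezh2-/- cells and 2.09 in WT cells, read from the brighter of its 2 clusters. None of the 7 was called by genotype at either stage, and Ezhip, a PRC2 inhibitor of germ cells, lay under the limit on every array.

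Genes of enzymes that remove the mark or compete with it were called in part on differentiation. Most of the counts below lie near or under the shares of genes above background, 50.2% in Ezh2-/- cells and 59.2% in WT cells. By genotype label in neutrophils, 31.4% of genes above background were called. Of 4 H3K27 demethylases and acetyltransferases, 2 rose on differentiation of Ezh2-/- cells and 3 of WT cells. The acetyltransferase gene Ep300 rose by 1.52 in Ezh2-/- cells and 1.96 in WT cells, and Crebbp by 1.06 and 1.32. The demethylase gene Kdm6b rose by 2.33 in WT cells, whereas its 0.45 in Ezh2-/- cells did not pass; the test of that difference gave −1.88 and did not pass (adjusted p = 0.0933). Of 8 H3K36 and H3K4 methyltransferase genes, 2 rose and 2 fell on differentiation of Ezh2-/- cells, and 2 rose and 1 fell in WT cells. The H3K36 enzyme gene Nsd2 fell in both (log2 −1.497 in Ezh2-/- cells and −2.65 in WT cells), and was the 1 gene of this list called by genotype, higher by 0.80 in neutrophils labelled Ezh2-/- (adjusted p = 0.00212). Of 10 genes of the H2A deubiquitinase complex PR-DUB, 1 rose and 2 fell on differentiation of Ezh2-/- cells and 2 rose and 3 fell in WT cells, with the catalytic subunit gene Bap1 at −0.74 and −1.07. Both PR-DUB genes called by genotype in neutrophils were lower with the Ezh2-/- label, with Foxk1 at −1.04 and Mbd6 at −0.77. None of these 3 lists had a gene called by genotype in undifferentiated cells, where the median shifts lay between −0.034 and 0.036, or with GSK343.

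Genes whose pattern was most like a member's were found by the root mean square difference over the 8 genotype arrays, each gene centred on its own mean, among 14698 other genes above background on at least 2 of them. Nearest to Ezh2 were Dock9 (0.27 log2 units), the sphingosine phosphate receptor gene S1pr3 (0.31) and the membrane protease gene St14 (0.34). Nearest to Ezh1 were Gm13840 (0.13), the cannabinoid receptor gene Cnr2 (0.17) and Ypel5 (0.17). No member's 3 nearest genes included another member or a gene of the lists above.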

How the data were processed

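Gene expression was measured on the Affymetrix Mouse Transcriptome Array 1.0 from 250 ng of RNA, per the series text. The values the authors deposited are on a log2 scale, judged from their range, with 1 value for each transcript cluster or control. Affymetrix software is named in the submitters' processing notes (Expression Console, Transcriptome Analysis Console). How values were summarised and corrected for background, and on which build, was not given in those notes or labels. Of 72688 entries, 6732 control probe sets were left out of the tests. Repeated symbols in the annotation were merged, and outdated symbols were replaced using RefSeq's gene table (GRCm38.p6) and the Entrez IDs.

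A single limma model (limma 3.58.1, R 4.3.3) held the log2 values of all 12 arrays (lmFit and eBayes, 6 group means, 6 residual and 3.06 prior degrees of freedom), and p-values were adjusted over all 65956 clusters. Intervals are 95% intervals from that fit. The fit was tested on simulated data. The number of arrays limits the precision. Named genes are all 10 members, genes of whole lists with the largest or smallest called changes or on which the text turns, and the 3 genes nearest to Ezh2 and to Ezh1. Members, lists and rules were chosen with earlier results of these data known. Alternatives covered the arrays fitted, scaling, dim and unnamed clusters, the eBayes prior, a replicate block and leaving out each array; averaging all clusters of a symbol changed nothing, as each member has 1. Of the listed genes, 8 shared a cluster with another gene or had none here, and were left out. Where a listed gene had several clusters (Rb1 3, Lcor 2, E2f3 2), the brightest by mean over all 12 arrays was read and the others are not shown.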

Additional observations from a re-analysis of the deposited data

Results flagged for a closer look

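The difference between genotypes changed between stages, by limma's interaction test, for 6 of the 10 subunits, and each is given here as the Ezh2-/- minus WT difference in neutrophils less that in undifferentiated cells. Ezh2 stood at 2.89 (adjusted p = 0.000186), Rbbp7 at 1.38 (adjusted p = 0.0318) and Suz12 at 1.07 (adjusted p = 0.0155). Phf1 stood at −2.004 (adjusted p = 0.0144), Ezh1 at −1.24 (adjusted p = 0.0423) and Phf19 at −1.04 (adjusted p = 0.0427). For Ezh2, Suz12, Rbbp7, Ezh1 and Phf1 the change on differentiation was smaller in Ezh2-/- cells than in WT cells. For Phf19 both WT neutrophil arrays lay below the middle value of the negative controls, so its fall in WT cells may be understated and its value here is not exact. Phf1 sat close to background in undifferentiated cells, so its value is not exact either. The neutrophils in these values carry the Ezh2-/- label, which their Ezh2 signal does not settle, and proliferation, mast cell and erythroid genes differ between the same neutrophil groups, whose part in these values was not tested.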

How the results depend on the processing

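With 2 arrays a group, the number of arrays limits every count. The number of members called by genotype in undifferentiated cells was 2, and 1 when only the 4 compared arrays were fitted. On differentiation of Ezh2-/- cells it was 8, and 5 with only the 4 compared arrays. The interaction count was 6, but 2 with a trended, robust eBayes prior, and it ranged from 1 to 5 without 1 array. Fitting the replicate number as a block brought it to 3. No label says that replicate numbers pair arrays, and deviations of same-numbered arrays correlated at −0.19 to 0.19; with the block, counts by genotype in undifferentiated cells and neutrophils, with GSK343 and on differentiation of Ezh2-/- and WT cells were 2, 4, 0, 9 and 9, against 2, 4, 0, 8 and 9 without it. Numbers crossed between GSK343 and vehicle, or between WT neutrophils and undifferentiated cells, chosen after the data were seen, gave 0 and 9 calls, as before. Leaving out 1 array gave 7 to 9 calls on differentiation of WT cells, 6 to 8 on differentiation of Ezh2-/- cells and 4 to 5 by genotype in neutrophils. Over all clusters, genotype calls in undifferentiated cells numbered 1969, against 1061 with each array range fitted alone, 351 on the 4 compared arrays and 962 to 2776 without 1 array. Genotype calls in neutrophils numbered 7791, against 4023 to 9580 without 1 array. Calls on differentiation of Ezh2-/- cells numbered 14799, against 7591 on the 4 compared arrays. Interaction calls numbered 2911, against 1352 with each range alone and 1511 to 3758 without 1 array, and GSK343 calls 1, against 0 to 9. No called member changed sign under any alternative run; the differences that did were all uncalled. By genotype in undifferentiated cells, Rbbp7 was −0.043 after quantile normalization. Leaving out 1 array moved Rbbp7 there between −0.11 and 0.15, Ezh1 between −0.10 and 0.14, Suz12 between −0.0027 and 0.067, Jarid2 between −0.055 and 0.25, and Aebp2 between −0.24 and 0.34. It moved the GSK343 difference of Eed between −0.25 and 0.013 and of Suz12 between −0.18 and 0.10, and the interaction of Eed between −0.055 and 0.48 and of Aebp2 between −0.19 and 0.39. The cause of these changes was not tested. Over all member results and alternatives, 1166 values kept direction and call, 61 lost a call and 10 gained one. The 1166 overstate stability. They include the averaging of clusters, which equals the main fit, and the Phf19 limit, which had no new test. They also include runs without an array outside the comparison, where only the spread can change.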

Other observations

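The genotype comparison in neutrophils and the GSK343 comparison share no arrays. Their differences had the same sign for 8 of 10 members, Eed and Suz12 being the exceptions, and for 64.5% of genes above background. The 8 include Phf19, which lay below the middle value of the negative controls in WT and vehicle neutrophils. None of the members' drug differences passed the test. Outside the rule for named genes, and chosen after their values were seen, the closest match of any member's pattern over the genotype arrays was the cohesin gene Smc3 to Suz12, with a root mean square difference of 0.047 log2 units.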
